A study of Arabidopsis thaliana with 12 samples.

Results

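Indole-derived defence compounds of Arabidopsis thaliana were followed through 10 genes: the transcription factor genes MYB51 and MYB122, and the cytochrome P450 genes CYP79B2, CYP79B3, CYP71A13, PAD3, CYP82C2, CYP82C3, CYP82C4 and CYP81F2. They were picked by locus, with earlier results of these data known, from the 36917 loci counted in each of 12 RNA-seq libraries, so their own values below are a description and carry no p. All plants carried the mutations flu and ex1. The 2 genotypes were flu/ex1/ydl1 and flu/ex1, grown in soil under continuous light to an age of 6 days, held in darkness for 4 h and then sampled at 0, 30 or 60 min of light. Whole plants were extracted, and the labels give neither the alleles nor whether the 2 libraries of a genotype and time came from separate plants. The p-values therefore measure only the spread between these libraries, which may be technical. The comparisons ask what the ydl1 mutation changes in flu/ex1 plants before and after singlet oxygen is released by light.

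Tryptophan is turned by CYP79B2 and CYP79B3 into indole-3-acetaldoxime, a branch point of indolic metabolism. One branch runs through CYP83B1 to the indole glucosinolates, which CYP81F2 then hydroxylates, another through CYP71A13 and PAD3 to the phytoalexin camalexin, and a further one through CYP82C2 to 4-hydroxyindole-3-carbonyl nitrile. MYB51, MYB122 and MYB34 are transcription factors that promote indole glucosinolate synthesis, and these compounds are known in leaves for their part in defence against fungi. In the flu mutant a chlorophyll precursor builds up in darkness and gives singlet oxygen in the plastids on re-illumination, and EX1 is a plastid protein through which that signal acts.

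For 8 of the 12 libraries the sample label and the name of the deposited count table give different light times, and both give 1 genotype. Libraries are grouped and named here by the time and number in the table's name. The results below depend on that choice: over all times 1604 genes differed between the genotypes with table-name times, and 6 with labelled times. The 4 libraries whose label gives the same time are flu/ex1/ydl1 0 min replicate 1, flu/ex1/ydl1 60 min replicate 1, flu/ex1 0 min replicate 2 and flu/ex1 60 min replicate 1. Libraries held 7859611 to 11591060 counts, of which 63.3% to 71.7% fell on plastid loci. Expression is given as CPM, counts scaled to the library size after TMM normalization, and flu/ex1/ydl1 60 min replicate 1 had the smallest scaled library at 5596223 while flu/ex1/ydl1 60 min replicate 2 had 13149105. FLU lay between 29.5 and 59.8 CPM in flu/ex1/ydl1 and between 45.2 and 56.4 CPM in flu/ex1, and EX1 lay between 2.09 and 5.36 CPM in flu/ex1/ydl1 and between 2.91 and 5.22 CPM in flu/ex1. Since both genotypes carry these mutations, the levels say nothing of the genotype labels. The annotation used here names no locus YDL1, and its level is not reported.

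MYB51 (AT1G18570), a regulator of indole glucosinolate synthesis, was higher in flu/ex1/ydl1 at both light times and not apart at 0 min. At 0 min it stood at 2.84 and 2.22 CPM in flu/ex1/ydl1 against 2.63 and 1.28 CPM in flu/ex1. At 30 min it stood at 11.6 and 13.0 CPM in flu/ex1/ydl1 against 2.55 and 2.49 CPM in flu/ex1. At 60 min the levels were 7.33 and 16.6 CPM in flu/ex1/ydl1 and 1.64 and 1.69 CPM in flu/ex1. The genotypes overlapped at 0 min, and every flu/ex1/ydl1 library at 30 and 60 min lay above all 6 flu/ex1 libraries. Overlap of libraries is, here and below, a description, since 2 libraries can lie above 2 others without a difference between genotypes. The share of all genes whose libraries lie apart is not reported here. The log2 fold change of flu/ex1/ydl1 over flu/ex1 was 0.42 ± 0.46 (SE, n = 2 libraries each) at 0 min, 2.28 ± 0.37 at 30 min and 2.88 ± 0.37 at 60 min. The 60 min value rests in part on flu/ex1/ydl1 60 min replicate 2, the higher of the pair by 2.26-fold, and was 2.13 without that library. With labelled times in place of the table names it was 2.31. By label, the 0 min libraries stood at 2.84 and 11.6 CPM in flu/ex1/ydl1 and at 2.63 and 2.49 CPM in flu/ex1, without overlap. The overlap at 0 min thus holds only with table-name times. Between the pair of 60 min libraries whose label and table name give the same time, MYB51 had 7.33 CPM in flu/ex1/ydl1 and 1.64 CPM in flu/ex1.

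Within flu/ex1/ydl1, MYB51 at 30 min and at 60 min lay above 0 min by 2.28 ± 0.38 each on the log2 scale (SE, n = 2 libraries each). With any 1 library left out the 30 min value was 2.11 to 2.47, while the 60 min value was 1.53 to 2.76, lowest without flu/ex1/ydl1 60 min replicate 2. Within flu/ex1 the change was 0.42 ± 0.44 at 30 min and -0.18 ± 0.45 at 60 min, with overlapping libraries at 30 min and at 60 min. MYB122 (AT1G74080), its close relative, was near the limit of detection. It had 5 counts in the 6 flu/ex1/ydl1 libraries and 1 count in the 6 flu/ex1 libraries, too few to be tested. MYB34 (AT5G60890), the other MYB factor of this branch and not one of the 10, stood at 20.9 and 9.96 CPM in flu/ex1/ydl1 and at 8.33 and 11.4 CPM in flu/ex1 at 60 min. Its libraries overlapped, and the log2 fold change was 0.61 ± 0.33 (SE, edgeR adjusted p = 0.311). Leaving out replicate 2 of flu/ex1/ydl1 at that time, the lower of its pair, gave 1.08 (edgeR adjusted p = 0.0455), and the range of adjusted p over all alternatives was 0.0455 to 0.968. The coding sequence of MYB51 is 67.7% identical to that of MYB122 and 56.2% to that of MYB34.

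**Figure D1:**
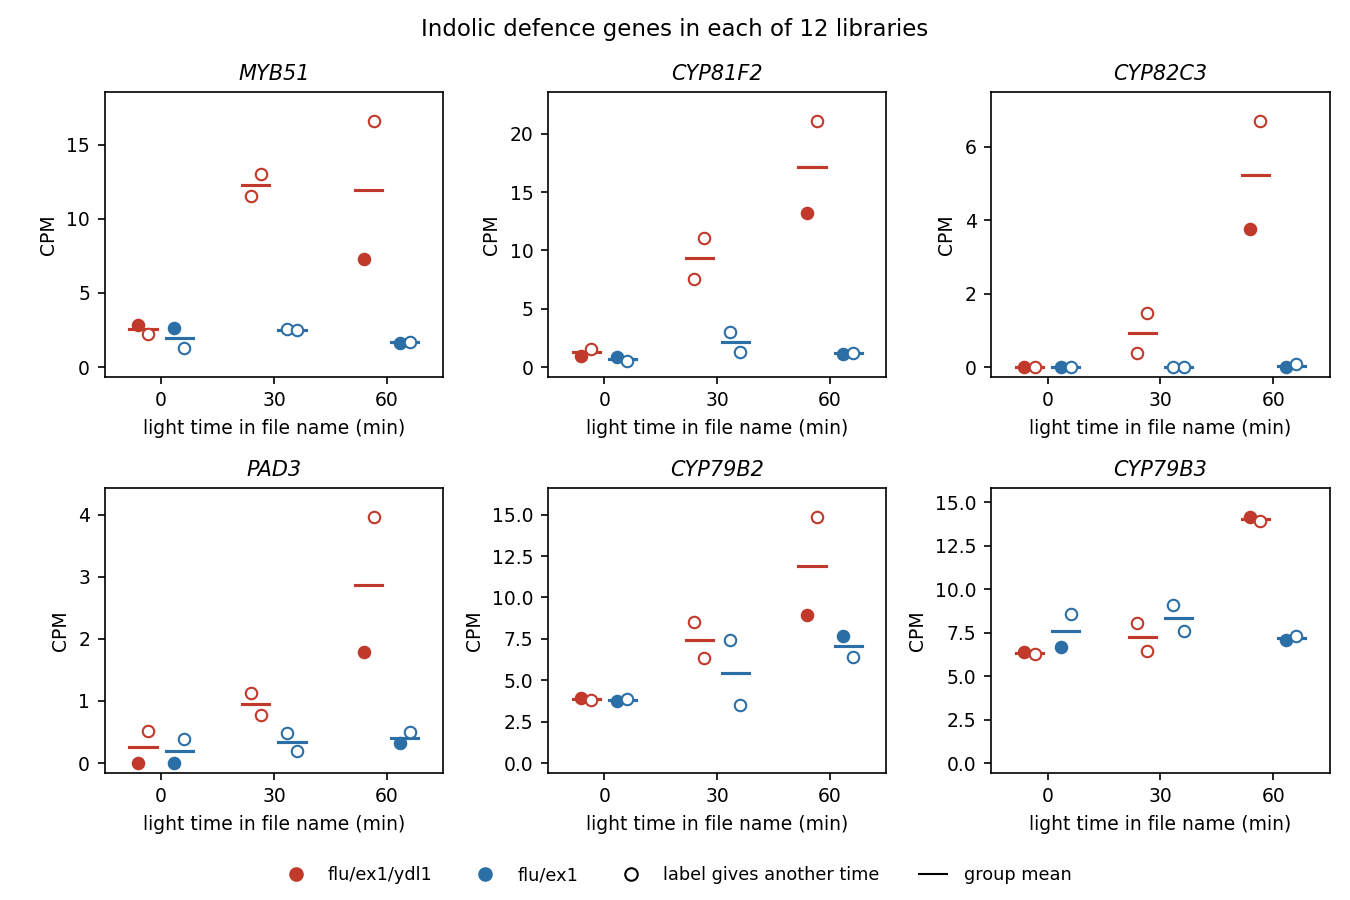
CPM of MYB51, CYP81F2, CYP82C3, PAD3, CYP79B2 and CYP79B3 (y axis, linear, each panel on its own scale) against light time in min; each point is 1 library, red for flu/ex1/ydl1 and blue for flu/ex1, filled where label and table name give the same time, and the bar is the mean of 2 libraries. MYB51 in flu/ex1/ydl1 is at 7.33 CPM or more in the 4 libraries at 30 and 60 min, while no flu/ex1 library exceeds 2.63 CPM, and CYP79B3 lies above flu/ex1 only at 60 min.

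CYP81F2 (AT5G57220), which hydroxylates the indole ring of indole glucosinolates, had the widest range of the 10 genes, from 0.492 to 21.1 CPM. At 0 min it stood at 0.948 and 1.57 CPM in flu/ex1/ydl1 against 0.830 and 0.492 CPM in flu/ex1. At 30 min it stood at 7.54 and 11.1 CPM in flu/ex1/ydl1 against 3.04 and 1.30 CPM in flu/ex1, and at 60 min at 13.2 and 21.1 CPM in flu/ex1/ydl1 against 1.14 and 1.19 CPM in flu/ex1. The 2 flu/ex1/ydl1 libraries were above the 2 flu/ex1 libraries at each of the 3 times, narrowly so at 0 min, where this alone shows no difference. The log2 fold change of flu/ex1/ydl1 over flu/ex1 was 0.97 ± 0.62 (SE, n = 2 libraries each) at 0 min, 2.104 ± 0.38 at 30 min and 3.89 ± 0.39 at 60 min. The 30 min value was 2.84 without flu/ex1 30 min replicate 2, the higher of its pair, and 1.62 without replicate 3. Labelled times gave 3.71 at 30 min and 2.58 at 60 min.

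Over time CYP81F2 in flu/ex1/ydl1 lay above 0 min by 2.88 ± 0.43 at 30 min and by 3.77 ± 0.42 at 60 min on the log2 scale (SE). In flu/ex1 the differences from 0 min were 1.75 ± 0.55 at 30 min and 0.86 ± 0.57 at 60 min, and the first was 1.01 once replicate 2 at 30 min was left out. The methyltransferase genes IGMT1 and IGMT2, whose products methylate the hydroxylated indole glucosinolates, are not among the 10 and were higher in flu/ex1/ydl1 at 60 min. IGMT2 had 48.4 and 87.6 CPM in flu/ex1/ydl1 and 3.79 and 7.38 CPM in flu/ex1 at 60 min, a log2 fold change of 3.62 ± 0.47 (SE, edgeR adjusted p = 4.81e-05). IGMT1 had 6.08 and 12.5 CPM in flu/ex1/ydl1 and 0.757 and 0.632 CPM in flu/ex1, a log2 fold change of 3.76 ± 0.55 (edgeR adjusted p = 0.000135), which was 3.10 once replicate 2 of flu/ex1/ydl1 was left out. The coding sequences of IGMT1 and IGMT2 are 82% identical, so reads may be divided between them.

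Of the 3 CYP82C genes, which stand close together on chromosome 4, 1 was read in appreciable numbers. CYP82C3 (AT4G31950) had 0 and 0 counts at 0 min, 3 and 15 at 30 min and 21 and 88 at 60 min in flu/ex1/ydl1. In flu/ex1 it had 0 counts in 5 libraries and 1 count in 60 min replicate 3. The genotypes did not overlap at 30 min or 60 min, and neither had a count at 0 min. Over all times flu/ex1/ydl1 held 127 counts and flu/ex1 1 count, a depth-corrected ratio of 165 with an exact 95% interval of 29.1 to 6580, which covers counting error only. This comparison of genotypes holds whichever time is used, since labels and table names give the same genotype. At 60 min the counts were 109 in flu/ex1/ydl1 and 1 in flu/ex1, a ratio of 175 (30.7 to 6970). At 30 min 18 counts in flu/ex1/ydl1 stood against 0 in flu/ex1, at least 6.66-fold higher with a floor of 3 counts over the group.

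Most of the CYP82C3 counts came from 1 library, flu/ex1/ydl1 60 min replicate 2, which held 88 counts or 6.69 CPM. The other flu/ex1/ydl1 library at 60 min, where label and table name agree, had 21 counts or 3.75 CPM, and the flu/ex1 library of the same kind had 0. Against 0 min in the same genotype, CYP82C3 in flu/ex1/ydl1 was at least 4.94-fold higher at 30 min and at least 29.1-fold higher at 60 min. CYP82C2 (AT4G31970), the hydroxylase of the carbonyl nitrile branch, had 4 counts in all, 2 in flu/ex1/ydl1 and 2 in flu/ex1. CYP82C4 (AT4G31940), which acts on coumarins in iron-starved roots, had 0 counts in flu/ex1/ydl1 and 1 count in flu/ex1. A count of 0 over the 6 flu/ex1/ydl1 libraries allows up to 0.0577 CPM. The coding sequence of CYP82C3 is 90.8% identical to CYP82C2 and 90.6% to CYP82C4, with the longest identical stretches at 85 and 97 bases, and how reads that fit several loci were counted is not given in the sources used here. In the 2 libraries with 21 and 88 counts on CYP82C3, CYP82C2 had 1 and 0 counts and CYP82C4 had 0 and 0.

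**Figure D2:**
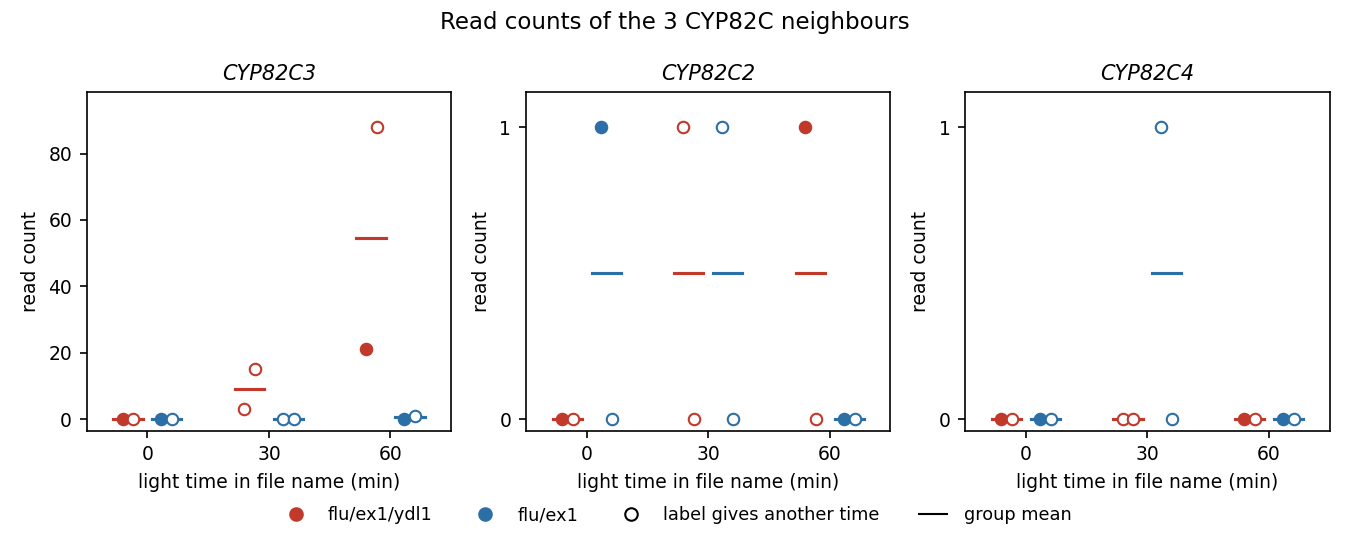
Read counts of CYP82C3, CYP82C2 and CYP82C4 (y axis, raw counts, each panel on its own scale) in each library against light time in min, with flu/ex1/ydl1 in red and flu/ex1 in blue and the bar at the mean of 2 libraries. CYP82C3 reaches 88 counts in flu/ex1/ydl1 and at most 1 in flu/ex1, while no library has more than 1 count of CYP82C2 or CYP82C4.

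The stretch of 250 bases before the annotated start of each gene, read from the RefSeq genome TAIR10.1 on the gene's strand, was searched for the W-box, the element bound by WRKY factors (TTGACC or TTGACT on either strand). It occurs in 3 of the 10, CYP82C3, CYP82C2 and CYP81F2, and in 28.4% of 27443 gene promoters of the same length. CYP82C3 has 4 matches, at 232, 67, 38 and 26 bases before the start, CYP82C2 has 3, at 250, 143 and 96 bases, and CYP81F2 has 2, at 194 and 109 bases. CYP82C4 has no match. The G-box CACGTG, held by 6.49% of promoters, and the GCC box GCCGCC, held by 1.87%, occur in 0 of the 10. The matches are a description of these letters and show no binding. The promoters shown are those of the 3 CYP82C neighbours, which differ in reads, and that of CYP81F2, with W-box matches in capitals, 5′ to 3′. They lie on the plus strand at chr4:15454833-15455082 (CYP82C3), chr4:15462100-15462349 (CYP82C2), chr4:15451738-15451987 (CYP82C4) and chr5:23187590-23187839 (CYP81F2).
CYP82C3: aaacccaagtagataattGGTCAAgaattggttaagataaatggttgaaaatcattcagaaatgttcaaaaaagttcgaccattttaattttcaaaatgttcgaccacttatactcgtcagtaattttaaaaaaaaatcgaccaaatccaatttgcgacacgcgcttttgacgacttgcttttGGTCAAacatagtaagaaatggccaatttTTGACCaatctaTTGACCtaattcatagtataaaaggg
CYP82C2: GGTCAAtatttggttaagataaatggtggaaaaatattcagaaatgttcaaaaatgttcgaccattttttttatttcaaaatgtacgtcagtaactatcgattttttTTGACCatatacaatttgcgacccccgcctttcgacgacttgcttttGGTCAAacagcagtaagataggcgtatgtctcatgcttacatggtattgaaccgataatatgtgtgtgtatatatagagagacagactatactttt
CYP82C4: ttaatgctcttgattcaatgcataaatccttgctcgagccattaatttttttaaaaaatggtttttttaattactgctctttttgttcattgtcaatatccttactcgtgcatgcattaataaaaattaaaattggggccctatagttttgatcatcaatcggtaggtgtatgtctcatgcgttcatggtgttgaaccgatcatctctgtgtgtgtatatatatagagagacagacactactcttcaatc
CYP81F2: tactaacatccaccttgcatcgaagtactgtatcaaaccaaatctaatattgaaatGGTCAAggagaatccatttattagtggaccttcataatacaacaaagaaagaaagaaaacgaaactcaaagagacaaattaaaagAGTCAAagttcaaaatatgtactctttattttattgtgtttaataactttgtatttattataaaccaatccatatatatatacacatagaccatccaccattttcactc
CYP82C3 and CYP82C2 both carry W-box matches, and their reads differed, at 128 and 4 counts over the 12 libraries.

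In the camalexin branch, PAD3 (AT3G26830), the P450 of its last steps, was read at low levels. It had 0 and 4 counts at 0 min, 9 and 8 at 30 min and 10 and 52 at 60 min in flu/ex1/ydl1. The counts in flu/ex1 were 0 and 4 at 0 min, 5 and 2 at 30 min and 5 and 7 at 60 min. As CPM, the 60 min libraries were at 1.79 and 3.95 in flu/ex1/ydl1 and at 0.316 and 0.492 in flu/ex1, and the genotypes overlapped at 0 min and not at 30 or 60 min. The log2 fold change of flu/ex1/ydl1 over flu/ex1 was 1.41 ± 0.87 (SE, n = 2 libraries each) at 30 min and 2.88 ± 0.70 at 60 min. Without flu/ex1/ydl1 60 min replicate 2 the 60 min value was 2.12, and with labelled times it was 1.60. Against 0 min the log2 change of PAD3 at 60 min was 3.45 ± 0.85 in flu/ex1/ydl1 and 0.79 ± 1.04 in flu/ex1. These changes are not settled at 0 and 4 counts in the 0 min libraries: with 1 library left out they ran over 2.55 to 7.95 in flu/ex1/ydl1 and 0.03 to 5.04 in flu/ex1. The difference between them ran over -1.59 to 7.15 and turned negative once replicate 3 of flu/ex1 at 0 min was left out.

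CYP71A13 (AT2G30770), the P450 that takes indole-3-acetaldoxime towards camalexin, was read in few counts in both genotypes. It had 19 counts in flu/ex1/ydl1 and 15 counts in flu/ex1, and 14 of the 19 were in flu/ex1/ydl1 60 min replicate 2. Its neighbour CYP71A12 (AT2G30750), 90.4% identical in coding sequence and not one of the 10, had 4 and 24 counts in flu/ex1/ydl1 and 2 and 6 counts in flu/ex1 at 60 min. Both had too few counts to be tested, and reads may be divided between them. Of the 8 other genes listed for camalexin and the carbonyl nitrile, 7 could be tested, and 4 were higher in flu/ex1/ydl1 at 60 min, against 8.53% of all genes tested. ABCG34, which encodes a transporter that exports camalexin, was higher in flu/ex1/ydl1 by 1.94 ± 0.25 (SE, edgeR adjusted p = 4.16e-05) on the log2 scale. GGP1, a γ-glutamyl peptidase gene of the pathway, was higher by 1.29 ± 0.30 (edgeR adjusted p = 0.00862). AT1G26380, a gene of the berberine bridge enzyme-like family, had 13 and 95 counts in flu/ex1/ydl1 and 4 and 10 counts in flu/ex1 at 60 min (log2 fold change 3.39 ± 0.80, edgeR adjusted p = 0.00917). GSTF6, a glutathione transferase gene, was higher in flu/ex1/ydl1 by 1.26 ± 0.34 (edgeR adjusted p = 0.0226). GGP1, GSTF6 and AT1G26380 no longer passed once replicate 2 of flu/ex1/ydl1 or replicate 1 of flu/ex1 at 60 min was left out, GSTF6 also once replicate 3 of flu/ex1 was, and DESeq2 did not call AT1G26380. The list's median log2 fold change at 60 min was 1.26, and that of all genes -0.05.

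CYP79B2 and CYP79B3, the pair at the entry to the pathway, differed less. CYP79B2 (AT4G39950) stood at 3.93 and 3.79 CPM at 0 min, 8.54 and 6.32 CPM at 30 min and 8.93 and 14.8 CPM at 60 min in flu/ex1/ydl1. In flu/ex1 it stood at 3.74 and 3.84 CPM at 0 min, 7.44 and 3.49 CPM at 30 min and 7.70 and 6.39 CPM at 60 min. The libraries overlapped at 0 and 30 min and were apart at 60 min by little, with a log2 fold change of flu/ex1/ydl1 over flu/ex1 of 0.78 ± 0.31 (SE, n = 2 libraries each) at 60 min. Leaving out the higher library, flu/ex1/ydl1 60 min replicate 2, gave 0.34, and labelled times gave -0.0034. CYP79B2 lay above 0 min at 60 min in both genotypes, by 1.65 ± 0.35 in flu/ex1/ydl1 and 0.89 ± 0.35 in flu/ex1 on the log2 scale.

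CYP79B3 (AT2G22330) stood at 6.37 and 6.28 CPM at 0 min, 8.04 and 6.42 CPM at 30 min and 14.1 and 13.9 CPM at 60 min in flu/ex1/ydl1. In flu/ex1 it stood at 6.64 and 8.57 CPM at 0 min, 9.11 and 7.57 CPM at 30 min and 7.07 and 7.31 CPM at 60 min. Both flu/ex1/ydl1 libraries at 60 min were above every other library, the genotypes overlapped at 30 min, and at 0 min flu/ex1/ydl1 lay below flu/ex1. The log2 fold change of flu/ex1/ydl1 over flu/ex1 at 60 min was 0.96 ± 0.24 (SE), 0.93 to 0.99 with any 1 library left out and 0.33 with labelled times. Between the 60 min libraries whose label and table name agree, CYP79B3 had 14.1 CPM in flu/ex1/ydl1 and 7.07 CPM in flu/ex1. The change against 0 min was 1.15 ± 0.25 in flu/ex1/ydl1 and -0.09 ± 0.24 in flu/ex1. The coding sequences of CYP79B2 and CYP79B3 are 78.1% identical, with a longest identical stretch of 32 bases.

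Levels of different genes were compared as CPM per kb of spliced transcript, with the mean ± SD of 2 libraries. In flu/ex1/ydl1 at 60 min the order was CYP81F2 at 9.70 ± 3.14, MYB51 at 6.70 ± 3.67, CYP79B3 at 6.26 ± 0.0629, CYP79B2 at 5.56 ± 1.95, CYP82C3 at 3.17 ± 1.26 and PAD3 at 1.62 ± 0.863. Between neighbours from CYP81F2 to CYP79B2 the differences were within the larger SD of each pair, and CYP79B2 stood above CYP82C3 by more than either SD. CYP71A13 at 0.356 ± 0.504, MYB122 at 0.163 ± 0.0929 and CYP82C2 at 0.0487 ± 0.0689 followed, and CYP82C4 had no count. In flu/ex1 at 60 min CYP79B2 at 3.30 ± 0.432 and CYP79B3 at 3.21 ± 0.0754 were the highest and within their spread of each other, MYB51 at 0.932 ± 0.018 and CYP81F2 at 0.659 ± 0.0234 came next, and PAD3 stood at 0.227 ± 0.0702. CYP81F2 thus had the highest mean of the 10 in flu/ex1/ydl1, within the SD of MYB51. In flu/ex1 it stood below both CYP79B genes and MYB51. In whole plants, more RNA per cell and more cells that express a gene cannot be told apart.

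Some other genes of the pathway were higher in flu/ex1/ydl1 at 30 min and at 60 min. Their lists were also chosen with earlier results of these data known. List counts beside the share over all genes, here and elsewhere, are therefore descriptions and no test of the pathway. Lists of tryptophan synthesis, indole glucosinolates, camalexin, glucosinolate breakdown and transport, regulators, aliphatic glucosinolates, iron-starvation genes and root markers, without the 10, hold 106 genes found in the tables, and 79 passed the filter on low counts. At 0 min 0 of the 79 passed in edgeR and 0 in DESeq2, against 0.0112% of all genes in either direction in edgeR. An unadjusted p under 0.05 was found for 3 of the 79, beside 711 of all 17879 genes tested. At 30 min 8 were higher in flu/ex1/ydl1, against 3.56% of all genes tested, and at 60 min 21 were higher and 1 lower, against 8.53% higher and 1.33% lower among all genes. Over all times 19 were higher and 1 lower, against 7% and 1.97%. At an unadjusted p under 0.05 there were 23 at 30 min and 28 at 60 min, beside 2726 and 3788 of all 17879 genes tested. The number at 30 min was not tested against that at 60 min. The 8 at 30 min were PCS1, PEN2, PEN3, CPK5, MPK3, WRKY33, ABCG34 and IGMT2. Without the filter on low counts 14 passed at 30 min and 24 at 60 min, and with the compared groups fitted alone 13 and 22. At 30 min the count of 8 was 3, 5 and 4 once replicate 2 of flu/ex1, replicate 3 of flu/ex1 or replicate 3 of flu/ex1/ydl1 at that time was left out, and at 60 min the count of 22 was 14 once replicate 1 of flu/ex1 was. With labelled times none of the 79 passed in edgeR in any of these comparisons.

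In glucosinolate breakdown and transport 3 of 13 tested genes were higher in flu/ex1/ydl1 at 30 min, against 3.56% of all genes tested. PCS1, a phytochelatin synthase gene whose product also acts in this pathway, stood at 73.6 and 85.6 CPM in flu/ex1/ydl1 and at 12.3 and 17.1 CPM in flu/ex1 at 30 min, a log2 fold change of 2.43 ± 0.27 (SE, edgeR adjusted p = 0.000213). PEN2 is the myrosinase that cleaves indole glucosinolates at infection sites. Its log2 fold change of flu/ex1/ydl1 over flu/ex1 was 1.38 ± 0.26 at 30 min (edgeR adjusted p = 0.00416) and 2.14 ± 0.26 at 60 min (edgeR adjusted p = 2.55e-05). PEN3, the transporter that works with PEN2, stood at 431 and 473 CPM in flu/ex1/ydl1 and at 92.5 and 95.1 CPM in flu/ex1 at 60 min, a log2 fold change of 2.27 ± 0.28 (edgeR adjusted p = 2.66e-05). At 30 min the call of PEN2 was lost once either flu/ex1 library or replicate 3 of flu/ex1/ydl1 at that time was left out, and that of PCS1 was kept with each library left out in turn. In all 5 of the 13 genes tested were higher at 60 min, against 8.53% of all genes tested, with GSTU13 and GTR1 as the others. The list's median was 0.28.

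In tryptophan synthesis 3 of 11 tested genes were higher in flu/ex1/ydl1 at 60 min, against 8.53% of all genes tested, with a list median of 0.37. ASA1, for the α subunit of anthranilate synthase, stood at 12.3 and 15.4 CPM in flu/ex1/ydl1 and at 5.18 and 5.62 CPM in flu/ex1 (log2 fold change 1.37 ± 0.27, edgeR adjusted p = 0.00191). ASB1, for a β subunit of that enzyme, stood at 28.1 and 42.5 CPM in flu/ex1/ydl1 and at 8.71 and 11.03 CPM in flu/ex1 (log2 fold change 1.85 ± 0.28, edgeR adjusted p = 0.000199). AT2G04400 was the remaining gene, at 1.11 ± 0.22 (edgeR adjusted p = 0.00254), and its call was lost once replicate 1 of flu/ex1 at 60 min was left out. At 30 min 0 of the 11 passed in edgeR and in DESeq2, and 2 had an unadjusted p under 0.05, beside 2726 of all 17879 genes. Of the indole glucosinolate list 3 of 11 were higher at 60 min, against the same 8.53%, with a median of 0.42. Beside IGMT1 and IGMT2 this was SOT16, a sulfotransferase of the last core step, with 18.6 and 13.7 CPM in flu/ex1/ydl1 against 4.48 and 4.64 CPM in flu/ex1 (log2 fold change 1.81 ± 0.31, edgeR adjusted p = 0.000653). CYP83B1, the P450 at the head of this branch, did not pass at 60 min, with 38.6 and 41.4 CPM in flu/ex1/ydl1 against 27.0 and 23.0 CPM in flu/ex1 (0.68 ± 0.23, edgeR adjusted p = 0.082). Over all times CYP83B1 passed in edgeR, higher in flu/ex1/ydl1. Its log2 fold change over all times was 0.56 to 0.68 with any 1 library left out.

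Among regulators 6 of 13 tested genes were higher and 1 was lower in flu/ex1/ydl1 at 60 min, against 8.53% higher and 1.33% lower among all genes, with a list median of 0.80. WRKY33, a factor known to act on camalexin genes, was higher in flu/ex1/ydl1 by 3.45 ± 0.40 (edgeR adjusted p = 1.72e-05) on the log2 scale. ERF1, an ethylene response factor gene, was higher by 4.29 ± 0.65 (edgeR adjusted p = 0.000196). The ERF1 value was 3.41 with replicate 1 of flu/ex1 at 60 min left out and 6.33 with replicate 3 left out. The kinase genes MPK3, CPK5 and CPK6 and the jasmonate factor gene MYC2 were the other 4. MYC4, a relative of MYC2, stood at 5.003 and 6.62 CPM in flu/ex1/ydl1 and at 12.4 and 12.7 CPM in flu/ex1 (log2 fold change -1.08 ± 0.27, edgeR adjusted p = 0.0146). Of the 21 tested genes of aliphatic glucosinolate synthesis, the branch from methionine, 0 passed at 60 min in edgeR and in DESeq2. An unadjusted p under 0.05 was seen for 2 of them, beside 3788 of all 17879 genes tested. The list's median log2 fold change was -0.0013. Over all times CYP79F1, the entry P450 of that branch, was higher in flu/ex1/ydl1 by 1.57 ± 0.34 (edgeR adjusted p = 0.00545) and BCAT4, an aminotransferase gene of chain elongation, by 0.64 ± 0.18 (edgeR adjusted p = 0.0313). CYP79F1 averaged 2.80 CPM in flu/ex1/ydl1 and 0.425 CPM in flu/ex1 at 0 min, 0.983 CPM in flu/ex1/ydl1 and 0.295 CPM in flu/ex1 at 30 min, and 2.43 CPM in flu/ex1/ydl1 and 1.85 CPM in flu/ex1 at 60 min, so the genotypes lay closest at 60 min. The call of BCAT4 was lost with any of 6 libraries left out: both flu/ex1/ydl1 libraries at 0 min, replicate 1 of flu/ex1/ydl1 at 30 min, and replicates 3, 2 and 1 of flu/ex1 at 0, 30 and 60 min.

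**Figure D3:**
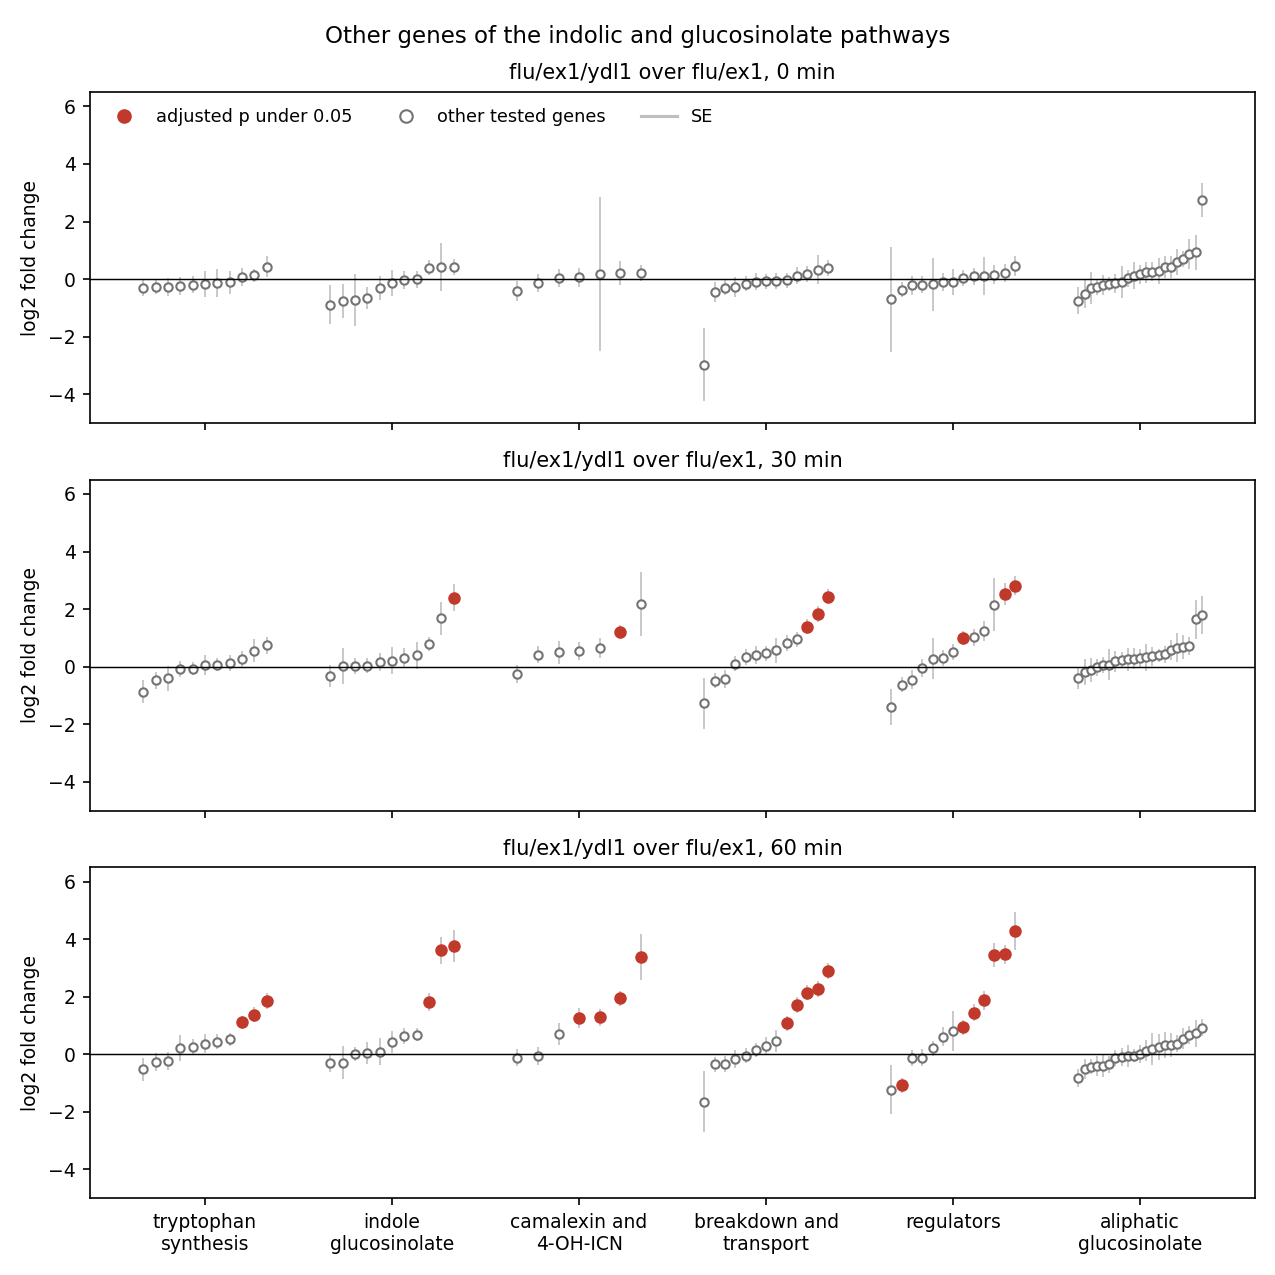
Log2 fold change of flu/ex1/ydl1 over flu/ex1 (y axis) with its SE for the tested genes of 6 pathway lists, sorted within each list, at 0, 30 and 60 min of light; filled red points have an edgeR adjusted p under 0.05. No gene is filled at 0 min, 8 are filled at 30 min and 22 at 60 min, and none of the 21 aliphatic glucosinolate genes is filled in any panel.

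The change over 60 min of light was set side by side for both genotypes, which have no library in common. Of the 79 listed genes 25 were higher at 60 min than at 0 min in flu/ex1/ydl1, against 9.6% of all genes tested, and 10 were higher at 30 min, against 4.79%. In flu/ex1 0 were higher at 30 min in edgeR and in DESeq2, against 0.537% of all genes tested. Counting either direction, 9 of the 79 had an unadjusted p under 0.05 in that edgeR comparison, beside 1445 of all 17879 genes tested. At 60 min 3 were higher in flu/ex1, against 1.03% of all genes. The 3 were CYP83B1, by 1.45 ± 0.25 (SE, edgeR adjusted p = 0.00623), SUR1, a C-S lyase gene of the glucosinolate core, by 1.25 ± 0.27 (edgeR adjusted p = 0.0278), and AT2G31790, by 1.67 ± 0.33 (edgeR adjusted p = 0.0174). CYP83B1 changed by 1.73 ± 0.25 (edgeR adjusted p = 9.3e-05) in flu/ex1/ydl1, and the difference between the genotypes in this change was 0.28 ± 0.34 (edgeR adjusted p = 0.845). With replicate 3 at 0 min or replicate 1 at 60 min left out, the count of 3 in flu/ex1 was 0, and with replicate 2 at 0 min or replicate 3 at 60 min left out it was 1. Leaving out any of the 4 flu/ex1/ydl1 libraries at 30 and 60 min gave 5. The count of 10 in flu/ex1/ydl1 was 6 with replicate 3 at 0 or at 30 min left out.

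The test of the difference itself, the change from 0 to 60 min in flu/ex1/ydl1 minus that in flu/ex1, passed for 14 of the 79 genes, all with the higher change in flu/ex1/ydl1, against 3.12% of all genes tested. IGMT2 had the largest difference at 4.51 ± 0.80 (SE, edgeR adjusted p = 0.00425), followed by IGMT1 at 4.48 ± 1.06 (edgeR adjusted p = 0.0247) and WRKY33 at 3.56 ± 0.59 (edgeR adjusted p = 0.0031). ASA1, ASB1 and AT2G04400 of tryptophan synthesis were among the 14, as were PCS1, PEN2, PEN3 and GSTU13. Of the 14, WRKY33, MPK3, PCS1, PEN2 and PEN3 passed with each library left out in turn, and each of the other 9 lost its call with at least 1 library left out. With replicate 3 of flu/ex1 at 0 min left out, the difference of IGMT1 turned to -1.49 (edgeR adjusted p = 0.851) and that of IGMT2 was 2.76 (edgeR adjusted p = 0.33). IGMT2 had 3.74 CPM in that library and 0.692 CPM in the other of its pair. WRKY33 was at 2.84 with replicate 2 of flu/ex1 at 0 min left out. The same difference was 2.46 ± 0.60 for MYB51, 2.92 ± 0.79 for CYP81F2, 1.24 ± 0.35 for CYP79B3 and 0.76 ± 0.50 for CYP79B2, given as descriptions, and that of MYB51 was 1.70 once replicate 2 of flu/ex1/ydl1 at 60 min was left out. With a library left out the count of 14 was 7 (replicate 3 of flu/ex1/ydl1 at 0 min, or replicate 1 of flu/ex1 at 60 min), 8 (either flu/ex1 library at 0 min) or 9 (replicate 2 of flu/ex1/ydl1 at 60 min). With replicate numbers as a block it was 7. With labelled times the difference was 0.82 for MYB51 and 0.61 for CYP81F2.

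**Figure D4:**
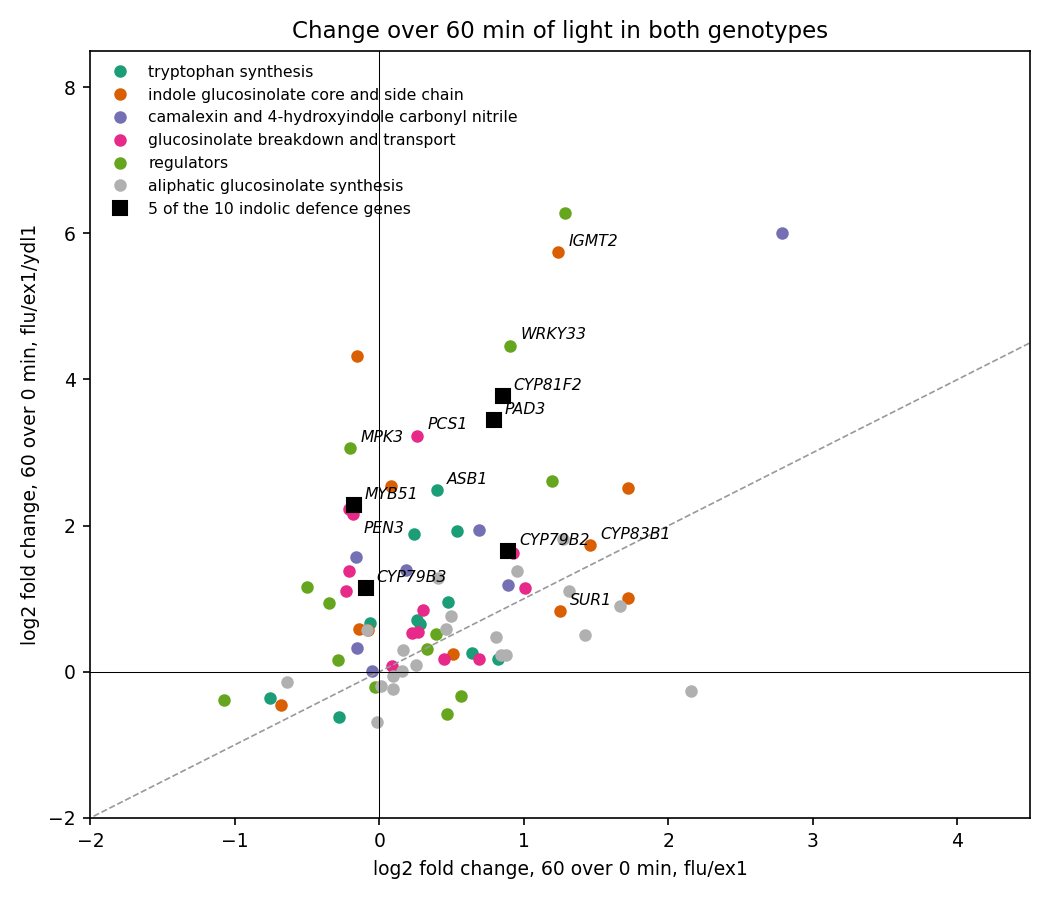
Log2 fold change of 60 over 0 min of light in flu/ex1/ydl1 (y axis) against the same in flu/ex1 (x axis) for tested genes of 6 pathway lists, coloured by list, with 5 of the 10 indolic defence genes as black squares; the dashed line marks equal change. MYB51 lies at 2.28 in flu/ex1/ydl1 and -0.18 in flu/ex1, while CYP83B1, at 1.73 and 1.45, lies near the line.

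Across the 12 libraries the 6 genes with enough counts to be tested moved together to different degrees, which is given as a description because the libraries share 2 genotypes and 3 times. Pearson's r of log2 CPM was highest between CYP81F2 and MYB51, at 0.93, and lowest between CYP79B3 and MYB51, at 0.46. CYP82C3 and CYP81F2 had 0.92. Among 17718 other tested genes, those most like MYB51 were AT2G24600, AT2G26190, MPK3, SR1 and AT5G46710, each at 0.98. The genes most like CYP79B2 were AT4G02940 at 0.96, AT1G05562 and UGT75B1 at 0.95 and 0.94, BEH3 at 0.94 and AT5G38240 at 0.93. AT1G05562 and UGT75B1 lie on opposite strands of the same stretch, and with the strand setting not given their reads cannot be told apart. For CYP82C3, taken after its values were seen in place of CYP82C2 with its 4 counts, the nearest were AT3G09405, AT4G28400 and AT2G32140 at 0.98, ACR7 at 0.98 and AT5G10695 at 0.97. CYP82C3 had a count in 5 of the 12 libraries and a fixed low value in the rest. Its r values, also that with CYP81F2, thus rest mainly on the flu/ex1/ydl1 libraries with counts.

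Markers of roots and of iron starvation were followed because camalexin genes and CYP82C4 are also known from roots. The 9 root markers summed to 41.7 to 55.9 CPM in flu/ex1/ydl1 and 42.8 to 59.6 CPM in flu/ex1, nearly all of it from PYK10, a β-glucosidase gene, at 37.2 to 49.6 CPM in flu/ex1/ydl1 and 40.7 to 55.7 CPM in flu/ex1. PYK10 and NRT2.1, a nitrate transporter gene, were the 2 tested, and neither passed in edgeR in any comparison. At 30 min NRT2.1 had 6.41 and 3.99 CPM in flu/ex1/ydl1 and 1.18 and 2.49 CPM in flu/ex1 (log2 fold change 1.49 ± 0.49, edgeR adjusted p = 0.12, unadjusted p = 0.00729). Over all times its log2 fold change was 0.64 ± 0.29 (edgeR adjusted p = 0.202, unadjusted p = 0.0438). The 7 other than PYK10 and NRT2.1 summed to 5 to 11 counts per library in flu/ex1/ydl1 and 3 to 11 counts in flu/ex1. Of 13 genes of iron starvation and coumarin synthesis, 1 had enough counts to be tested and it did not pass at 60 min in edgeR, where its unadjusted p was under 0.05, or in DESeq2. Their summed level was 6.41 to 7.86 CPM in flu/ex1/ydl1 and 5.32 to 9.91 CPM in flu/ex1. The part of either in the results was not tested.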

How the data were processed

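RNA of whole plants went into Illumina TruSeq libraries, as the labels' protocols say. The authors deposited raw read counts per locus, 1 table for each of 12 libraries. Per the submitters' processing notes, reads passed Trimmomatic, FastQC, TopHat2 2.1.1 with TAIR10, and featureCounts. The annotation, strand setting and treatment of multiply mapping reads are not given in the sources used here.

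Genes were kept by filterByExpr (minimum count 10, minimum total 15), which left 17879 of 36917 loci and 6 of the 10 genes described (MYB51, CYP79B2, CYP79B3, PAD3, CYP82C3 and CYP81F2). Libraries formed 6 groups of genotype and table-name time, scaled by TMM and fitted in 1 model by the quasi-likelihood method of edgeR 4.0.16 (R 4.3.3). P-values of each of 9 comparisons were adjusted by Benjamini-Hochberg over all genes tested, threshold 0.05. The SE of a log2 fold change is its absolute value divided by the square root of the F statistic of this fit. The spread behind it is estimated from all 12 libraries, and n gives the libraries of each group compared. CPM were computed from the deposited counts. Folds against a group without a count use a floor of 3 counts, and floors and 95% intervals cover counting error only.

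The 10 genes, the gene lists and the comparisons were chosen with earlier results of these data known. Named were the 10, up to 4 other genes of each list and comparison with the smallest p past the threshold, WRKY33, MYB34, CYP83B1, CYP71A12 and AT1G26380 throughout, and the 5 genes most like MYB51, CYP79B2 and CYP82C3 (prior count 2). MPK3, CPK5, CPK6, GSTU13, GTR1, PCS1, MYC4, PYK10 and NRT2.1 complete short lists and in part fall outside that rule. Of 107 listed loci 106 were in the tables, and 1 is not used here. Names and sequences come from RefSeq TAIR10.1, whose nuclear chromosomes are taken to be those of TAIR10. Alternatives were labelled times, DESeq2 1.42.0, edgeR with DESeq2's size factors, all genes unfiltered, nuclear loci alone, a fit of the compared groups alone, a replicate block, and each library left out in turn.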

Additional observations from a re-analysis of the deposited data

Results flagged for a closer look

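The change from 0 to 60 min of light differed between flu/ex1/ydl1 and flu/ex1 for the genes below, as the log2 change in flu/ex1/ydl1 minus that in flu/ex1. In indole glucosinolate modification and its core the difference was 4.51 for IGMT2, 4.48 for IGMT1 and 2.46 for SOT16. Among regulators it was 3.56 for WRKY33, 3.26 for MPK3 and 1.67 for CPK6. In breakdown and transport it was 2.97 for PCS1, 2.44 for PEN2, 2.33 for PEN3 and 1.59 for GSTU13. In tryptophan synthesis it was 2.09 for ASB1, 1.64 for ASA1 and 1.39 for AT2G04400, and in the camalexin list 1.72 for ABCG34. Each of these 14 passed edgeR's test of the difference with an adjusted p under 0.05, with 2 libraries per genotype and time. MYB51 came onto this list at 2.46, and CYP81F2, with a larger difference given above, did not. Both genes were chosen with their responses known, so no p is given and their values are descriptions. The flag is no test of either gene, and they were not tested against each other. In flu/ex1 at 0 min IGMT1 had 0 and 14 counts, so its difference rests on 1 library.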

How the results depend on the processing

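Labelled times changed most. All genes called then numbered 6 over all times, against 1604 by table names, and 0 in place of 700 at 30 min, 1763 at 60 min, 964 and 2283 for 30 and 60 against 0 min in flu/ex1/ydl1, 116 and 246 for the same in flu/ex1 and 582 for the difference between genotypes. The listed pathway genes called were 0 in each of these where they had been 20, 8, 22, 10, 25, 3 and 14. Without the filter on low counts, all genes called numbered 10 at 0 min (2 with it), 363 and 701 for 30 and 60 against 0 min in flu/ex1 and 885 for the difference, and pathway genes 2 at 0 min, 14 at 30 min, 17 for 30 against 0 min in flu/ex1/ydl1 and 8 for 60 against 0 min in flu/ex1. DESeq2 gave 186 for 30 against 0 min in flu/ex1 and 5 pathway genes for 60 against 0 min there. Fitting only the groups compared gave 5 genes at 0 min, 13 pathway genes at 30 min and 5 for 60 against 0 min in flu/ex1. With 1 library left out, all genes called ranged over 1023 to 2193 over all times, 0 to 4 at 0 min, 121 to 811 at 30 min, 942 to 1894 at 60 min, 438 to 1092 and 1427 to 2419 for 30 and 60 against 0 min in flu/ex1/ydl1, 15 to 181 and 56 to 363 in flu/ex1 and 230 to 710 for the difference. Pathway genes ranged over 14 to 21, 0 to 0, 3 to 10, 14 to 23, 6 to 13, 21 to 28, 0 to 0, 0 to 5 and 7 to 16 in the same order. The lone library of a group was then assumed to vary like the other groups. The IGMT1 difference ranged over -1.49 to 5.30, and was -1.49 (edgeR adjusted p = 0.851) without flu/ex1 0 min replicate 3, whose partner has 0 counts. The cause of the other shifts was not tested.

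Replicate numbers as a block gave 1 gene at 0 min, 334 genes for the difference and 7 pathway genes for it. Deviations of same-numbered libraries, in pairs of groups that share both numbers, correlated at 0.16, 0.09, 0.28 and -0.18. These few values cannot decide whether the numbers mark a batch. The main fit did not use the numbers to pair samples. No library held more than 52 counts of PAD3 or 88 of CYP82C3, so depth limits what can be said of the camalexin and CYP82C genes.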
